A study of Homo sapiens with 4 samples.

Results

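The signalling components and feedback genes of the NF-κB pathway were examined in SAS cells, a cell line from human tongue squamous cell carcinoma, after knockdown of AEG-1 (MTDH, also called LYRIC). A list of 36 genes was used: 5 NF-κB subunits, 5 proteins of the IκB family, 7 kinases, 12 receptor and adaptor genes, and 7 feedback and target genes. A gene entered through any non-control probe whose accession carried its symbol, which gave 39 of the 34127 probes and 35 of the 36 genes. NFKB2 was not matched to a probe in this way, which does not show that the array lacks one. BIRC3 was above background on 3 of 4 arrays in each channel and was not tested, which left 34 genes among the 23484 tested in all.

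SB cells carried pLKO.1-LYRIC shRNA-B, a short hairpin RNA against AEG-1, and SCt cells carried a control that the labels give as pLKO.1 vector and the study's methods as a scrambled hairpin. Both were lentivirally transduced stable lines, selected for 14 days in puromycin at 2 μg/ml and kept in it afterwards, and received no cytokine or other NF-κB stimulus in the labels. On each of 4 dual-channel arrays, SB RNA was labelled with a red Alexa Fluor dye and SCt RNA with a green one, each from 15 μg of total RNA. Values are log2 ratios of SB over SCt, so a negative value is a lower level in SB cells, and "past the threshold" means a limma p under 0.05 after Benjamini-Hochberg adjustment over all 28505 kept probes. With 1 hairpin line against 1 control line, an effect of the knockdown and another difference between the lines cannot be told apart. With 0 dye-swapped arrays, the same holds for gene-specific dye bias.

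NF-κB is a family of dimeric transcription factors that IκB proteins hold in the cytoplasm. Receptors such as the TNF receptor assemble adaptors and ubiquitin ligases that switch on the IκB kinase complex, IκB is then degraded, and the freed dimers enter the nucleus. Among the genes they switch on are the pathway's own brakes, including IκBα and the ubiquitin-editing enzyme A20, and NF-κB drives much of the inflammatory gene expression of squamous carcinoma cells.

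As a check of the labels, AEG-1 measured −3.18, −3.01, −3.12 and −3.41 on arrays 1 to 4, a mean of −3.18 ± 0.17 (SD, n = 4), or 11.0% of the SCt level (limma, adjusted p = 5.19e-10). Between 85.4% and 90.3% of spots in the SB channel and between 84.7% and 90.0% in the SCt channel were well above background. The log2 ratios of the arrays correlated with r between 0.05 and 0.46 in pairs, across the 28505 probes. All 11 markers of squamous epithelium were above background on all arrays in both channels, and so, at 1 or more probes, were all 7 markers of leukocytes, endothelium, fibroblasts and smooth muscle, which therefore does not separate cell types here. Of either marker list, 0 genes were past the threshold, and their part in the results was not tested. In bulk RNA, fewer expressing cells and less RNA per cell cannot be told apart.

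The upstream sequences of 7 members are shown because they hold, or lack, a match to the κB consensus, the short sequence pattern that NF-κB binds. The κB consensus was searched on both strands in RefSeq windows of GRCh38.p14 from 250 bases before to 50 after each transcription start. The pattern was GGGRNNYYCC, with R for A or G, Y for C or T and N for any base. GC-rich stretches can therefore match, such as GGGGCGCCCC in IRAK1. Each line gives the 120 bases before the start, or for CYLD those from 250 to 131 bases before its first start, 5′ to 3′ on the gene's strand, with matches in capitals. TNFAIP3, LTB and CYLD are members that were lower in SB cells and hold a match, and TNFAIP2 is one of 4 that were lower and hold none in their windows, the others being CHUK, TBK1 and BIRC2. NFKBIA, NFKB1 and REL hold a match and did not pass the threshold.
TNFAIP3, chr6:137867139-137867258, plus strand: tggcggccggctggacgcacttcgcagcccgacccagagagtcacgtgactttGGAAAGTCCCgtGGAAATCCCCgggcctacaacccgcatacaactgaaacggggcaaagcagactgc
LTB, chr6:31582426-31582545, minus strand: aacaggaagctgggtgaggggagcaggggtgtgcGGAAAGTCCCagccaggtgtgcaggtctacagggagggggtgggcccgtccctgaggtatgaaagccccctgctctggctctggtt
CYLD, chr16:50741836-50741955, plus strand: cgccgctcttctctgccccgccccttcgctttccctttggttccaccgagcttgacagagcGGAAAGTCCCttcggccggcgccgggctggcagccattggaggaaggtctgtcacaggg
TNFAIP2, chr14:103123341-103123460, plus strand: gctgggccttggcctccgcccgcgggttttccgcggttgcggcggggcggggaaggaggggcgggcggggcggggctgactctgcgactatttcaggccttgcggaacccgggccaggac
NFKBIA, chr14:35404750-35404869, minus strand: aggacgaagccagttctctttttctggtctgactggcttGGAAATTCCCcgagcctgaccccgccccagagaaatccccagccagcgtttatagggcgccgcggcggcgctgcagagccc
NFKB1, chr4:102501239-102501358, plus strand: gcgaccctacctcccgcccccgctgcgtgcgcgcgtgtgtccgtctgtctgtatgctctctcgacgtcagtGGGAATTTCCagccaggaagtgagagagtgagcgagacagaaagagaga
REL, chr2:60881454-60881573, plus strand: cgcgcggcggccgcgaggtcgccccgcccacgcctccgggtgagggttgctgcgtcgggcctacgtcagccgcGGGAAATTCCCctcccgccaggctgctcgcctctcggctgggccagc

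TNFAIP3 had a pair of matches, starting 67 and 55 bases before the start, and NFKBIA had 1, starting 81 bases before it. In REL the matches at −47 and −46 overlapped. LTB had a second match downstream of its start, and CYLD had 1 in each of 2 of its 3 windows. Over all 27305 genes with a window, 13.3% held a match in at least 1 window, against 15 of 32 members (46.9%). By single windows the shares were 11.3% of 35093 and 35.8% of 53. Of the members listed as NF-κB-inducible, 10 of 12 held a match (83.3%), and of the other members 5 of 20 (25.0%). Of the 7 members with a window that were lower past the threshold, 3 held a match. RELB, NFKBIE, TRADD and IKBKB had no window in the table. A match describes letters in a window and is not a measured binding site.

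Among the 34 tested members, 8 were lower in SB cells past the threshold (23.5%) and 0 were higher, and 26 did not pass. Over all genes tested, 2.26% were lower and 1.26% higher by the same rule. Without adjustment, 9 members were lower and 4 higher at a limma p under 0.05, against 8.98% and 9.16% of all genes. The 8 were TNFAIP3, TNFAIP2, CYLD and LTB among the feedback and target genes, CHUK, IKBKB and TBK1 among the kinases, and BIRC2 among the adaptors. Values lay below 0 on all 4 arrays for 13 of the 33 members measured on all of them (39.4%, against 12.3% of all genes) and above 0 on all 4 for 6 members (against 14.1% of all genes). The median log2 ratio was −0.08 over the members and 0.01 over all genes, and median centring in place of the intensity-dependent loess turned the members' median to 0.02 while that of all genes rose to 0.07. On single arrays the members' median was −0.11, −0.05, −0.15 and −0.03.

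**Figure D1:**
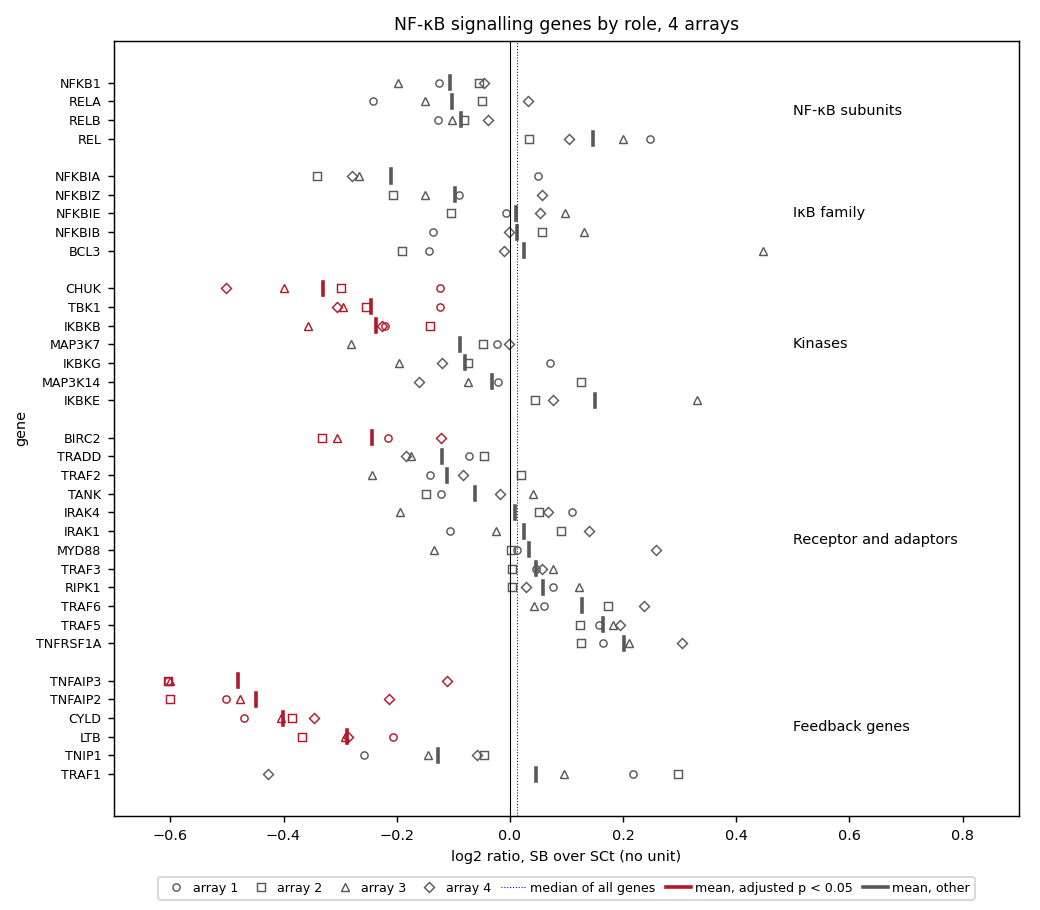
Log2 ratio of SB over SCt for the 34 tested members, grouped by role, with 1 symbol per array, a bar at the mean, red for a limma adjusted p under 0.05 and a dotted line at the median of all genes. The 8 red genes lie below 0 on every array, and 4 of them are among the 6 feedback and target genes.

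The 5 subunits are the DNA-binding proteins of the pathway, and none of the 4 that were measured passed the threshold. NFKB1, the precursor of p50, measured −0.12, −0.05, −0.20 and −0.05, a mean of −0.11 ± 0.07 (SD, n = 4; limma, adjusted p = 0.345). RELA, the p65 subunit with a strong transactivation domain, measured −0.24, −0.05, −0.15 and 0.03, a mean of −0.10 ± 0.12 (adjusted p = 0.407 by limma). RELB, a partner of p52 in the non-canonical pathway, measured −0.13, −0.08, −0.10 and −0.04, a mean of −0.09 ± 0.04 (limma, adjusted p = 0.422).

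NFKB1 and RELB lay below 0 on all arrays, and RELA on 3 of 4. REL, the c-Rel subunit best known from lymphocytes, ran the other way, at 0.25, 0.03, 0.20 and 0.10. Its mean was 0.15 ± 0.10 (SD, n = 4; limma, adjusted p = 0.203), above 0 on all arrays and passed only under median centring (0.23, adjusted p = 0.0218). The second RELA probe gave a mean of −0.03 (limma, adjusted p = 0.862). The 95% intervals of the subunit means were −0.24 to 0.03 for RELA, −0.21 to 0.03 for RELB, 0.02 to 0.27 for REL and −0.23 to 0.02 for NFKB1. The median of the subunits was −0.09, and 0.02 under median centring.

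Of the 5 IκB family genes, 0 passed the threshold. NFKBIA encodes IκBα, the main cytoplasmic inhibitor and a direct NF-κB target. It measured 0.05, −0.34, −0.27 and −0.28 on arrays 1 to 4. Array 1 was near the SCt level and the other 3 lay below it, so the mean of −0.21 had an SD of 0.18 (n = 4; limma, adjusted p = 0.127). Without replicate 1 the mean was −0.30 and passed (limma, adjusted p = 0.0444).

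NFKBIA is one of the probes spotted 10 times on each array, so its spread within an array can be given. The SD over its 8 or 9 usable spots was 0.04, 0.04, 0.04 and 0.07 on arrays 1 to 4, below the SD of 0.18 between arrays. On array 1 the spots ran from −0.01 to 0.10, and the highest spot on any other array was −0.14. Spots of one array share its labelling, hybridisation and normalisation, so they do not give the spread to be expected between arrays. For NFKB1, the SD over spots was 0.04 to 0.06, close to the 0.07 between arrays.

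**Figure D2:**
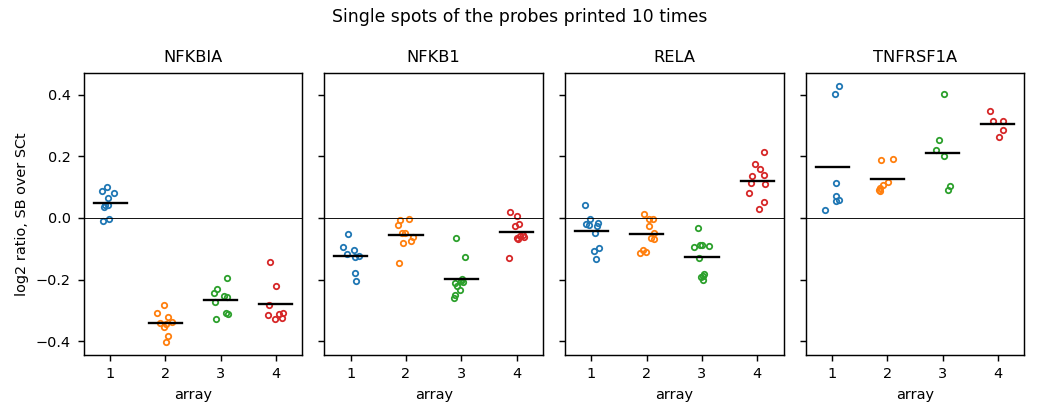
Single spots (circles) and their mean (bar) of the log2 ratio SB over SCt on each array, for the 4 member probes spotted 10 times; the RELA probe is its dimmer one. For NFKBIA, the spots of array 1 lie between −0.01 and 0.10 and do not overlap those of the other arrays.

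Each of the other IκB family genes lay on both sides of 0. NFKBIZ, which encodes the nuclear IκBζ that activates secondary response genes, measured −0.09, −0.21, −0.15 and 0.06 (mean −0.10 ± 0.11, SD, n = 4). NFKBIE, which encodes IκBε, measured −0.01, −0.10, 0.10 and 0.05 (mean 0.01 ± 0.09). NFKBIB, which encodes IκBβ, measured −0.14, 0.06, 0.13 and −0.002 (mean 0.01 ± 0.11).

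BCL3, a nuclear IκB protein that works with p50 and p52 homodimers, measured −0.14, −0.19, 0.45 and −0.01. Array 3 stood above the others, and the mean of 0.03 had an SD of 0.29. BCL3 was the brightest of the members, above 96.5% of kept probes. Of these genes, BCL3 passed under median centring (0.31, limma, adjusted p = 0.0328), and the others passed under none of the 15 alternatives.

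Among the 7 kinases, 3 were lower in SB cells, where 2.26% of all genes were lower. These 3 include both catalytic subunits of the IκB kinase complex. CHUK, which encodes IKKα, measured −0.12, −0.30, −0.40 and −0.50, lower on every array by an amount that differed between them. Its mean was −0.33 ± 0.16 (SD, n = 4), or 79.5% of the SCt level, with a 95% interval of −0.48 to −0.18 (limma, adjusted p = 0.0199). IKBKB, which encodes IKKβ, the kinase that marks IκBα for degradation, measured −0.22, −0.14, −0.36 and −0.23. Its mean was −0.24 ± 0.09, or 84.9% of the SCt level (limma, adjusted p = 0.0462), just inside the threshold.

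TBK1 encodes an IKK-related kinase that acts on interferon regulatory factors and NF-κB. It measured −0.12, −0.26, −0.29 and −0.31, a mean of −0.24 ± 0.08 (SD, n = 4) or 84.4% of the SCt level (limma, adjusted p = 0.0384). As for CHUK, array 1 was the closest to 0. IKBKG, the regulatory subunit NEMO that holds the complex together, measured 0.07, −0.07, −0.20 and −0.12. Its mean of −0.08 ± 0.11 did not pass (limma, adjusted p = 0.522), with a 95% interval of −0.21 to 0.05. Whether IKBKG differs from CHUK or IKBKB was not tested.

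IKBKE, the other IKK-related kinase, had values on 3 arrays and lay above 0 on each of them, at 0.04, 0.33 and 0.08 (mean 0.15 ± 0.16, SD, n = 3; limma, adjusted p = 0.319). It was fitted without array 1, where its spot was marked as an outlier, and it passed only under median centring (0.23, limma, adjusted p = 0.0467). MAP3K7, which encodes TAK1, the kinase upstream of the complex, had a mean of −0.09, and MAP3K14, which encodes NIK of the non-canonical pathway, −0.03. MAP3K7 was at −0.28 on array 3 and between −0.05 and 0.00 on the others. The median of the kinases was −0.09 and was 0.00 under median centring.

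Of the 12 receptor and adaptor genes, 1 passed the threshold, as lower, where 2.26% of all genes were lower. BIRC2 encodes cIAP1, a ubiquitin ligase that modifies RIPK1 in the TNF receptor complex and keeps NIK low in resting cells. It measured −0.22, −0.33, −0.31 and −0.12, lower on every array, with a mean of −0.24 ± 0.10 (SD, n = 4) or 84.4% of the SCt level (limma, adjusted p = 0.0422).

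The other 11 ranged from −0.12 to 0.20 in their means, and 5 of them were above 0 on all arrays, as were 14.1% of all genes. TNFRSF1A, the main TNF receptor, measured 0.16, 0.12, 0.21 and 0.30, higher on every array, with a mean of 0.20 ± 0.08 (SD, n = 4), or 1.15-fold, and did not pass (limma, adjusted p = 0.0778). It passed under median centring (0.31, limma, adjusted p = 0.00609). TRAF5 and TRAF6, adaptors of the TNF receptor family and of the IL-1 and Toll-like receptors, were also above 0 on all arrays, with means of 0.16 and 0.13, and so were TRAF3, a brake on NIK, and RIPK1, the scaffold kinase of the TNF receptor complex, with means of 0.05 and 0.06. These 5 were not past the threshold.

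TRADD, which binds the receptor's death domain, was below 0 on all arrays with a mean of −0.12 (limma, adjusted p = 0.283). TRAF2, which brings cIAP1 to the complex, TANK, which binds TRAF proteins and TBK1, MYD88, the adaptor of the IL-1 and Toll-like receptors, and the kinases that MYD88 recruits, IRAK1 and IRAK4, had values on both sides of 0. Their means lay between −0.11 and 0.03. IRAK1 passed as higher under median centring (0.21, limma, adjusted p = 0.0231). RELA, TRAF2, TANK and IRAK1 each had 2 kept probes, and 0 of these 8 probes passed.

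Of the 6 feedback and target genes tested, 4 were lower in SB cells, where 2.26% of all genes were lower. The median log2 ratio of the 6 was −0.34, and −0.34 also under median centring. The class is not the full inducible set, in which 3 of 12 tested genes were lower, with a median of −0.10. TNFAIP3 encodes A20, which trims ubiquitin chains from RIPK1 and NEMO and ends NF-κB signalling. It measured −0.60 on each of arrays 1, 2 and 3 and −0.11 on array 4, so that 3 arrays were nearly equal and array 4 stood apart. The mean was −0.48 ± 0.25 (SD, n = 4), or 71.7% of the SCt level, with a 95% interval of −0.66 to −0.30 (limma, adjusted p = 0.00843). Without replicate 4 it was −0.60, and without replicate 3 it was −0.44 and did not pass (limma, adjusted p = 0.130).

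CYLD encodes a deubiquitinase, first known as a tumour suppressor of skin appendages, that removes Lys63-linked and linear chains from NEMO and TRAF proteins. It measured −0.47, −0.38, −0.40 and −0.35, the most even of the 8. The mean was −0.40 ± 0.05 (SD, n = 4), or 75.7% of the SCt level, with a 95% interval of −0.52 to −0.28 (limma, adjusted p = 0.00228). CYLD is not listed as NF-κB-inducible here.

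TNFAIP2, a TNF-induced gene of vesicle and membrane traffic that is not known as an inhibitor, measured −0.50, −0.60, −0.48 and −0.21. It was lower on every array, least on array 4, with a mean of −0.45 ± 0.17 (SD, n = 4) or 73.3% of the SCt level (limma, adjusted p = 0.00428). Median centring brought it to −0.21 (limma, adjusted p = 0.0317). LTB, which encodes lymphotoxin β, the ligand of the lymphotoxin β receptor, measured −0.21, −0.37, −0.29 and −0.29. Its mean was −0.29 ± 0.07, or 81.9% of the SCt level (limma, adjusted p = 0.0157).

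The last tested genes of this class did not pass. TNIP1, which encodes the A20-binding protein ABIN-1, measured −0.26, −0.05, −0.14 and −0.06, below 0 on all arrays (mean −0.13 ± 0.10, SD, n = 4; limma, adjusted p = 0.274). TRAF1, an inducible adaptor that binds TRAF2 and cIAP1, measured 0.22, 0.30, 0.09 and −0.43. Array 4 had the opposite sign to the other 3, and the mean was 0.05 ± 0.33. BIRC3, which encodes cIAP2 and was not tested, measured −0.12, −0.13, −0.09 and 0.03 at a raw intensity of 1.70 to 2.56 times the local background.

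**Figure D3:**
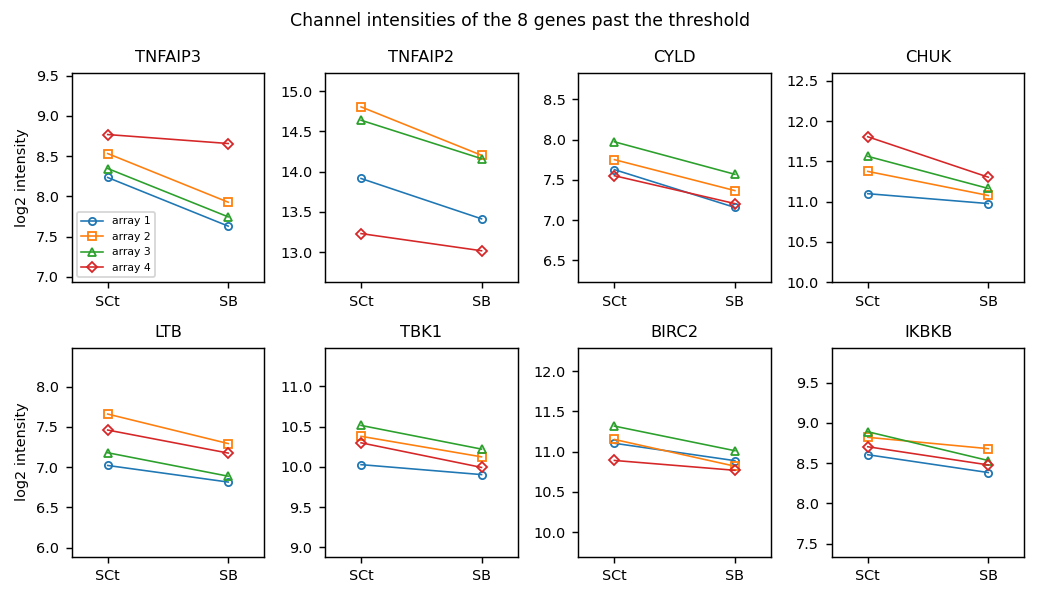
Normalised log2 intensity in the SCt channel (left) and the SB channel (right) of the 8 members past the threshold, with 1 line per array; every panel spans the same range of the log2 scale. Every line falls from SCt to SB, the flattest for TNFAIP3 being array 4, and the arrays differ in overall level by more than the fall in several panels.

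The intensities show how much signal stood behind each ratio. TNFAIP2 was 206 to 546 times the local background in the SB channel, CHUK and BIRC2 between 46.7 and 66.6 times, TBK1 24.4 to 38.3 times and IKBKB 8.79 to 12.6 times. The other 3 were dim: TNFAIP3 stood at 5.79 to 9.66 times the background, CYLD at 3.14 to 6.02 times and LTB at 2.60 to 3.59 times. For dim probes the background treatment sets the size of the ratio. Normexp without an offset gave −0.60 for TNFAIP3, −0.57 for CYLD and −0.45 for LTB, in place of −0.48, −0.40 and −0.29. TNFAIP2, which is bright, stayed at −0.45.

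Of the 34 members, 8 lay below the 5th percentile of genes in their own brightness class (20 classes of equal size) and 1, TNFRSF1A, above the 95th. These 8 are those past the threshold, and CYLD had the lowest mean of all genes in its class. The percentiles rank the same mean ratios that the calls rest on, so they are not separate support.

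**Figure D4:**
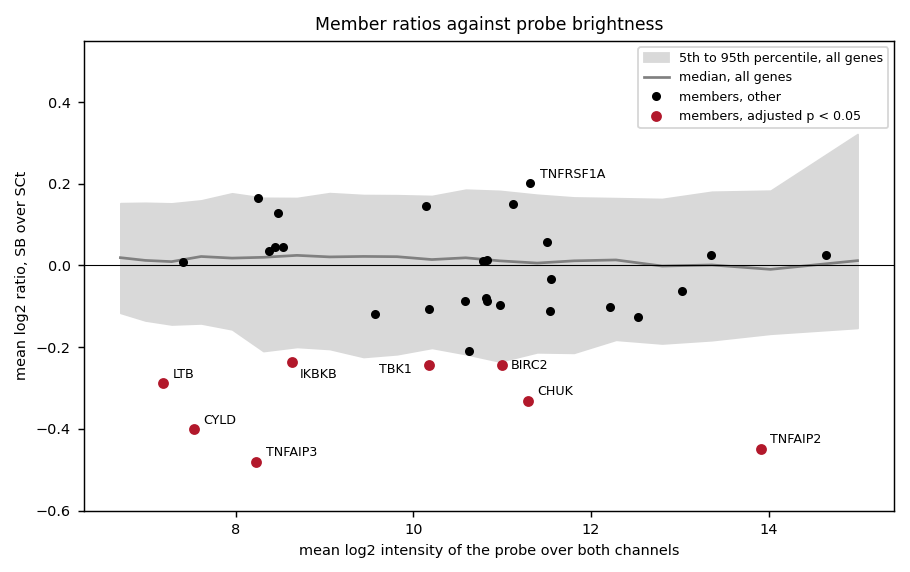
Mean log2 ratio SB over SCt of the 34 tested members against the mean log2 intensity of their probe, with the median (line) and the 5th to 95th percentile (band) of all 23484 genes in 20 brightness classes. LTB, CYLD and TNFAIP3 lie below the band at the dim end, TNFAIP2 at the bright end, and IKBKB, TBK1, BIRC2 and CHUK between them.

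The lower members came from both sides of a split by whether they are listed here as NF-κB-inducible. Of the 12 inducible members tested, 3 were lower past the threshold (TNFAIP3, TNFAIP2 and LTB), with a median log2 ratio of −0.10. Of the other 22 members, 5 were lower (CYLD, CHUK, IKBKB, TBK1 and BIRC2), with a median of −0.05. Over all genes, 2.26% were lower and the median was 0.01. Under median centring the medians of the inducible and other members were 0.00 and 0.03, and that of all genes was 0.07. A difference between the sets was not tested.

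The wider pathway was followed in 95 further genes: receptors, adaptors, kinases, ubiquitin enzymes, inhibitors, and coactivators or corepressors. Of the 88 tested, 2 were lower (2.27%) and 1 was higher, and their median was −0.01. LTBR, the receptor of lymphotoxin β, measured −0.39, −0.27, −0.52 and −0.28, with a mean of −0.37 ± 0.12 (SD, n = 4; limma, adjusted p = 0.00746), so that both this receptor and its ligand LTB were lower on every array. TAX1BP1, an adaptor that brings A20 to its substrates, was lower, with a mean of −0.26 ± 0.05 (limma, adjusted p = 0.0224). PELI1, a ubiquitin ligase that acts on IRAK1 and RIPK1, was higher, with a mean of 0.33 ± 0.16 (limma, adjusted p = 0.0199). None of the 3 passed without replicate 3, or by the methods' test, which passed no probe at all. Median centring gave 21 of the 88 that were higher, where the share over all genes was 20.8%.

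All 8 members past the threshold lay below 0 under each of the 15 alternatives, but their calls rested on unequal support. CYLD passed under 14 of them, TNFAIP3 and TNFAIP2 under 13, LTB under 12, CHUK under 10, IKBKB and TBK1 under 8 and BIRC2 under 7. With single arrays left out, 7 members were lower without replicate 1, 3 without replicate 2, 1 without replicate 3 and 8 without replicate 4, where 1.54%, 0.974%, 0.452% and 3.61% of all genes were lower. The one that passed without replicate 3 was CYLD (−0.40, limma, adjusted p = 0.0364). The other 7 had limma adjusted p-values of 0.0770 to 0.206 there. The 3 without replicate 2 were CYLD, TNFAIP3 and TNFAIP2, and the other 5 had limma adjusted p-values of 0.0742 to 0.214. Without replicate 1, IKBKB and BIRC2 no longer passed (limma, adjusted p = 0.107 and 0.0935) and NFKBIA did.

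Median centring left 6 members lower, without TBK1 and BIRC2, where 11.2% of all genes were lower, and gave 5 that were higher (REL, BCL3, IKBKE, TNFRSF1A and IRAK1), where 20.8% of all genes were higher. It does not remove the intensity-dependent dye trend that loess removes. The test that the methods name, run on each probe alone without the shared variance of limma, gave 0 members after adjustment, and 10 lower and 2 higher without it, against 6.69% and 6.96% of all genes.

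**Figure D5:**
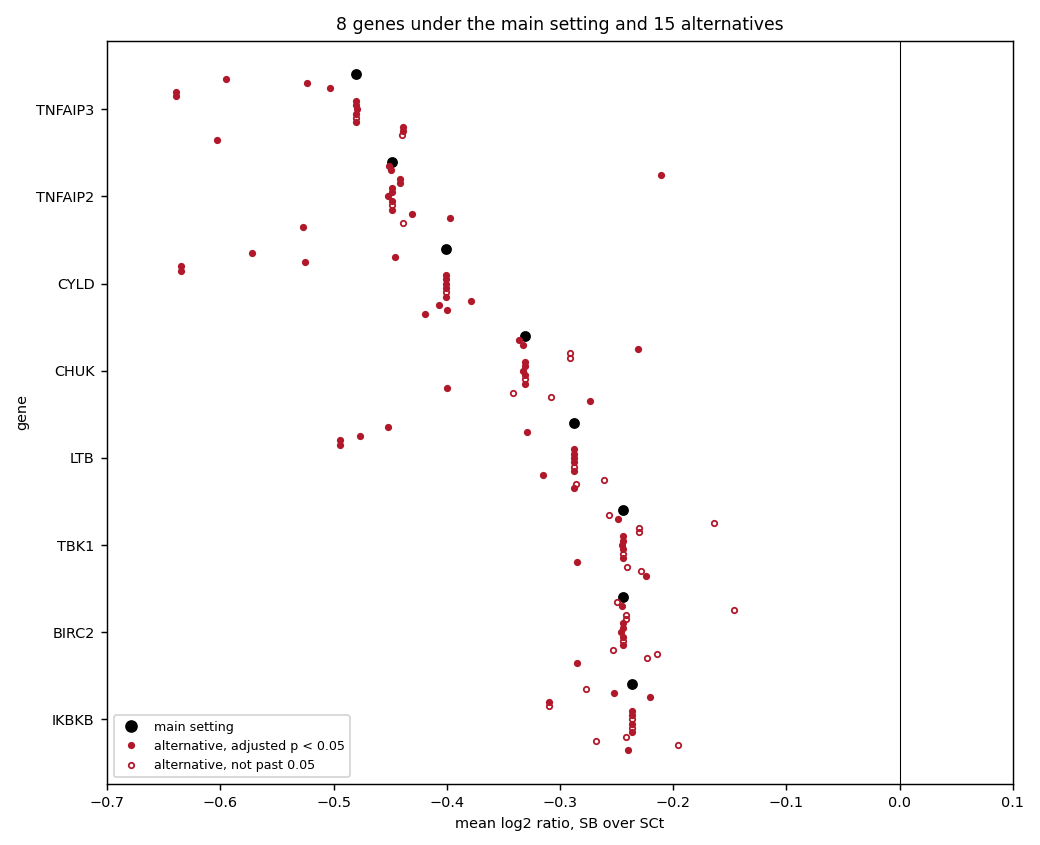
Mean log2 ratio SB over SCt of the 8 members past the threshold under the main setting (black) and 15 alternatives (red, filled where past an adjusted p of 0.05). Every point lies below 0, which settings that reuse the main ratios or leave an array out could not change. The number of filled red points falls from 14 for CYLD to 7 for BIRC2, counting settings that reuse the main ratios.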

How the data were processed

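RNA of SB and SCt cells was compared on 4 dual-channel Agilent arrays that the labels call biological replicates; separate cultures are not described, so p-values measure the spread between arrays, which may be technical. Per array, the authors deposited a Feature Extraction 10.5.1.1 text file: red and green median intensity per spot with local background, not normalized, and the software's own log10 ratio. A series table deposited by the authors holds log2 ratios of SB over SCt.

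In R 4.3.3 with limma 3.58.1, intensities were corrected by normexp (offset 50), control spots were removed, outlier spots (1.89% to 2.71% per array) were left out, ratios were normalized by loess within arrays, and spots of a probe were averaged. Kept were probes that 1 channel placed well above background on each of the 4 arrays and that had values on at least 2 (28505 of 34127); they were tested with lmFit and eBayes. Probes were named through the RefSeq table (GRCh38.p14), which 24826 matched. A probe without a match kept its own identifier as its gene name, so "all genes" includes transcripts without a symbol. A gene was represented by its brightest kept probe. The steps were tested on simulated arrays whose set changes were larger than the mean change of any lower member. Recovery of changes as small as theirs was not tested. All arrays lay on 1 slide. The number of arrays limits the precision, and an exact sign-flip test over 4 arrays cannot go below p = 0.125.

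The members and lists were chosen with earlier results of these data known. Values per array are given for members past the threshold, the subunits, NFKBIA, CHUK, IKBKB, IKBKG and inducible members, and for NFKBIB, IKBKE and TNFRSF1A, chosen after their values were seen; other pathway genes (per array, LTBR) are named where past the threshold.

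The alternatives were normexp without an offset, no background correction, median centring, the software's ratios, the series table, the mean over a gene's probes, keeping outlier spots, dropping the dim-probe filter or asking it of both channels, a trended robust eBayes, the methods' t-test, and each array left out.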

Additional observations from a re-analysis of the deposited data

Results flagged for a closer look

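Of 37 member probes with values on 4 arrays, 2 had an array far from the other 3 by Dixon's test (5.41%), and chance flags about 1 in 20. TNFAIP3 on array 4 was at −0.11, the other arrays being near −0.60. MAP3K7 on array 3 was at −0.28, the other arrays being between −0.05 and 0.00.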

How the results depend on the processing

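All 8 lower members kept their direction under the 15 alternatives, though those that reuse the main ratios or leave an array out could not change it. Counts of members that were lower fell from 8 to 5 with normexp without an offset, 5 by the software's ratios, 4 by the series table and 0 by the methods' t-test, and ran from 1 to 8 with single arrays left out (1 without replicate 3, 3 without replicate 2). Median centring gave 5 members that were higher in place of 0, and medians of 0.0168 for all members, 0.0164 for the subunits, 0.0846 for receptors and adaptors (0.0294 otherwise), 0.00309 for inducible members and 0.0290 for the other members. The receptor and adaptor median ran from −0.0124 to 0.0437 with single arrays left out, being −0.0124 without replicate 4. The feedback median was −0.45 with normexp without an offset and −0.47 by the software's ratios and by the series table. Other pathway genes that were lower numbered 1 by each of these settings and 0 by the t-test, and 0 to 3 with single arrays left out. Those that were higher numbered 21 under median centring, 0 by the t-test, the series table and the software's ratios, and 0 to 1 with single arrays left out. Over all probes, median centring called 8937 (5599 higher, 3338 lower); 698 (224 higher) were called by the series table, 225 higher by the software's ratios, and 0 in either direction by the t-test; without single arrays the calls ran from 204 to 1977 in all, 68 to 851 higher and 136 to 1126 lower. The methods' t-test gave 3936 probes at an unadjusted p under 0.05. The causes were not tested. The ratio within each array already pairs SB with SCt, so no further block was fitted. Signal over background limits LTB and CYLD most.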
